A study of Sus scrofa with 3 samples.

Results

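The genes described here are a set of 49 named for type I interferon-stimulated genes, which cells switch on when they sense interferon. The set also holds the receptor chains IFNAR1 and IFNAR2, and IRF3, which is present before any stimulus. The genes were chosen by symbol, and 44 of the 49 were matched to the 34579 features measured in each liver library. IFNAR1, IRF9, EIF2AK2, IFI6, and RSAD2 were not matched and were not analysed here. The study asked how loss and replacement of testosterone change the liver of male Chinese Wuzhishan pigs, a miniature breed, on feed rich in fat and cholesterol (HFC). The labelled age was 6 to 7 months. That was the age before the experiment began, so the livers came from older animals. All pigs ate the HFC diet, which contained lard, egg yolk, cholesterol, and sodium cholate. IM pigs were intact and sham-operated, CM pigs were surgically castrated, and CMT pigs were castrated and injected weekly with testosterone propionate. No pigs on a standard diet were among the 3 libraries.

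For each group, liver RNA of 3 pigs, as the labels give it, was pooled in equal amounts into 1 poly-A library. The paper describes larger groups and does not state how many pigs entered a pool. A pool is an average of its pigs, so the spread between pigs is unknown, there are no replicates, and no difference given here was tested against animal-to-animal error. Values are FPKM, which are read counts scaled to transcript length and by a factor for each library. As given below, those factors were not proportional to the reads recovered per library. A gene was counted as higher or lower by 1.5-fold only if it was an mRNA feature whose FPKM reached 1 in each library. The 95% intervals beside ratios are exact binomial intervals on reads recovered from the FPKM values. They cover counting error in those pooled libraries only, and they would be wider if both mates of a pair were counted.

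Type I interferons are secreted after a cell senses viral or misplaced nucleic acid. They bind the receptor pair IFNAR1 and IFNAR2, and the kinases JAK1 and TYK2 then phosphorylate STAT proteins. STAT2 and IRF9 are parts of the complex ISGF3, which binds a response element in the promoters of interferon-stimulated genes. Their products degrade or sequester viral RNA, block membrane fusion, tag proteins with the ubiquitin-like ISG15, and restrain the response itself. In the liver, hepatocytes as well as Kupffer cells and other immune cells carry the receptor and can respond.

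Recovered reads numbered 26066784 to 36504048 per library, and 3 reads on a transcript of 1 kb corresponded to an FPKM of 0.877 to 1.47. Of the 8 hepatocyte markers listed, 8 were matched and none was at 0, and ALB was the highest of them in every library. Their FPKM summed to 994629 (IM), 744651 (CM), and 750571 (CMT).

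The study's supplementary material gives a primer pair for IRF7, the one transcription factor among these genes that was at least 1.5-fold higher in CM than in IM. The pair is shown because it marks the IRF7 transcript that the study also measured by qRT-PCR, whose values were not analysed here. Both are written 5′ to 3′ in lower case, and no bases are singled out.
IRF7 forward primer: tcgtcctggtgaagttgga
IRF7 reverse primer: tcgtcatagaggctgttggag

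All 44 matched genes were mRNA features that reached an FPKM of 1 in each library, as did 15613 features in all. They were well-expressed genes in this liver. Their median FPKM was 179 (IM), 284 (CM), and 169 (CMT), while the median of all 15613 features lay between 48.5 and 49.2. In each library 41 or 42 of the 44 were above that median. IFITM3 was the highest of them in every library. OASL was the lowest in IM and CMT, at 7.25 and 8.92, and PML was the lowest in CM, at 30.5.

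In castrated pigs most of these genes were higher than in intact pigs. In CM versus IM, 24 of 44 were at least 1.5-fold higher, which is 54.5%, against 11.1% of all features. Only IRF3 was at least 1.5-fold lower, against 12.1% of all features, and the other 19 genes were within 1.5-fold. Over the 44 genes the log2 ratio had a median of 0.65, a 1.57-fold difference, against -0.02 over all features. The middle quartiles of the 44 ran from 0.31 to 0.95 on the log2 scale. The differences were mostly moderate. At least 2-fold higher were 10 genes, or 22.7%, against 4.61% of all features. ISG20 and OASL were the only 2 of the 44 at or above 3-fold, or 4.55%, against 1.63% of all features. Of the 38 genes with recovered reads, 34 had an interval above 1, IRF3 had one below 1, and IFNAR2, TRIM21, and DTX3L had intervals that held 1.

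In castrated pigs given testosterone most of them were lower than in castrated pigs. In CMT versus CM, 23 of 44 were at least 1.5-fold lower, which is 52.3%, against 13.5% of all features. IRF3 alone was at least 1.5-fold higher, against 12.1% of all features. The median log2 ratio of CMT to CM was -0.67, against 0.013 over all features. CM is part of both comparisons, so a high CM library raises the first and lowers the second.

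Compared directly, CMT and IM were close for these genes. None of the 44 was at least 1.5-fold higher in CMT than in IM, against 6.67% of all features. MX2, IFITM2, and IFITM3 were at least 1.5-fold lower, which is 6.82% of the 44 against 10.1% of all features. The median log2 ratio of CMT to IM was -0.07, with an SD over the genes of 0.30, compared with 0.62 for CM to IM. Over all features the SD was also smaller for CMT to IM, at 0.52 compared with 0.65. Of the 38 genes with recovered reads, 19 had an interval that held 1, 9 had one above 1, and 10 had one below 1.

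CM was the highest of the 3 libraries for 39 of 44 genes, or 88.6%, and for 35.2% of all features. In 20 genes, or 45.5%, CM was at least 1.5-fold above both other libraries, against 6.87% of all features. The lowest library was CMT for 24 genes, IM for 19, and CM for IRF3 alone. The 5 genes for which CM was not the highest were IRF3 and TRIM21, highest in IM, and PARP9, DTX3L, and IFI35, highest in CMT, with TRIM21, PARP9, and IFI35 changing direction when libraries were scaled to equal sums. The count was similar among less and more abundant genes. Of the 22 genes with the lower mean FPKM, 13 were at least 1.5-fold higher in CM than in IM, and of the 22 with the higher mean, 11 were.

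**Figure D1:**
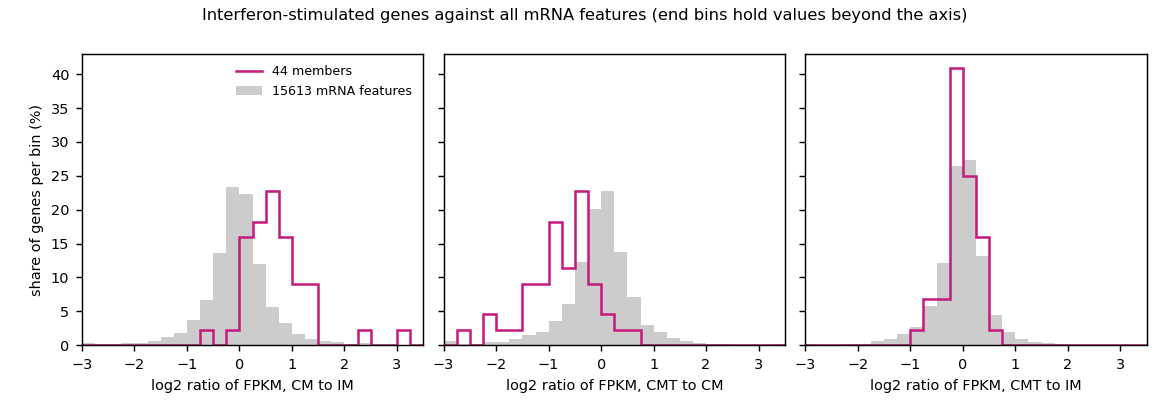
Share of genes (%) in each 0.25-wide bin of the log2 ratio of FPKM, for CM to IM, CMT to CM, and CMT to IM; grey bars are the 15613 mRNA features and the line is the 44 interferon-stimulated genes. The 44 genes lie to the right of all features in the left panel (medians 0.65 and -0.02), to the left in the middle panel (medians -0.67 and 0.013), and over them in the right panel (medians -0.07 and -0.01).

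How the libraries are scaled sets the size of these values. The FPKM were used as deposited. An FPKM of 1 stood for 2.51 (IM), 3.42 (CM), and 2.04 (CMT) reads per kb. Those factors were not proportional to recovered reads, which numbered 32236683, 36504048, and 26066784. Scaling to recovered reads raised the log2 ratio of CM to IM of every gene by 0.27 and lowered that of CMT to CM by 0.26. Scaling the libraries to equal sums over all features, in which ALB and other hepatocyte mRNAs weigh heavily, raised the log2 ratio of CM to IM of every gene by 0.26 and lowered that of CMT to CM by 0.25. Features at least 1.5-fold different were then 75.1% higher in CM than in IM, compared with 48% as deposited, and 22.7% higher in CMT than in CM, compared with 47.3%. Relative to the median of all features, which no library scaling can alter, the 44 genes stood 0.67 higher in CM than in IM and 0.68 lower in CMT than in CM on the log2 scale.

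**Figure D2:**
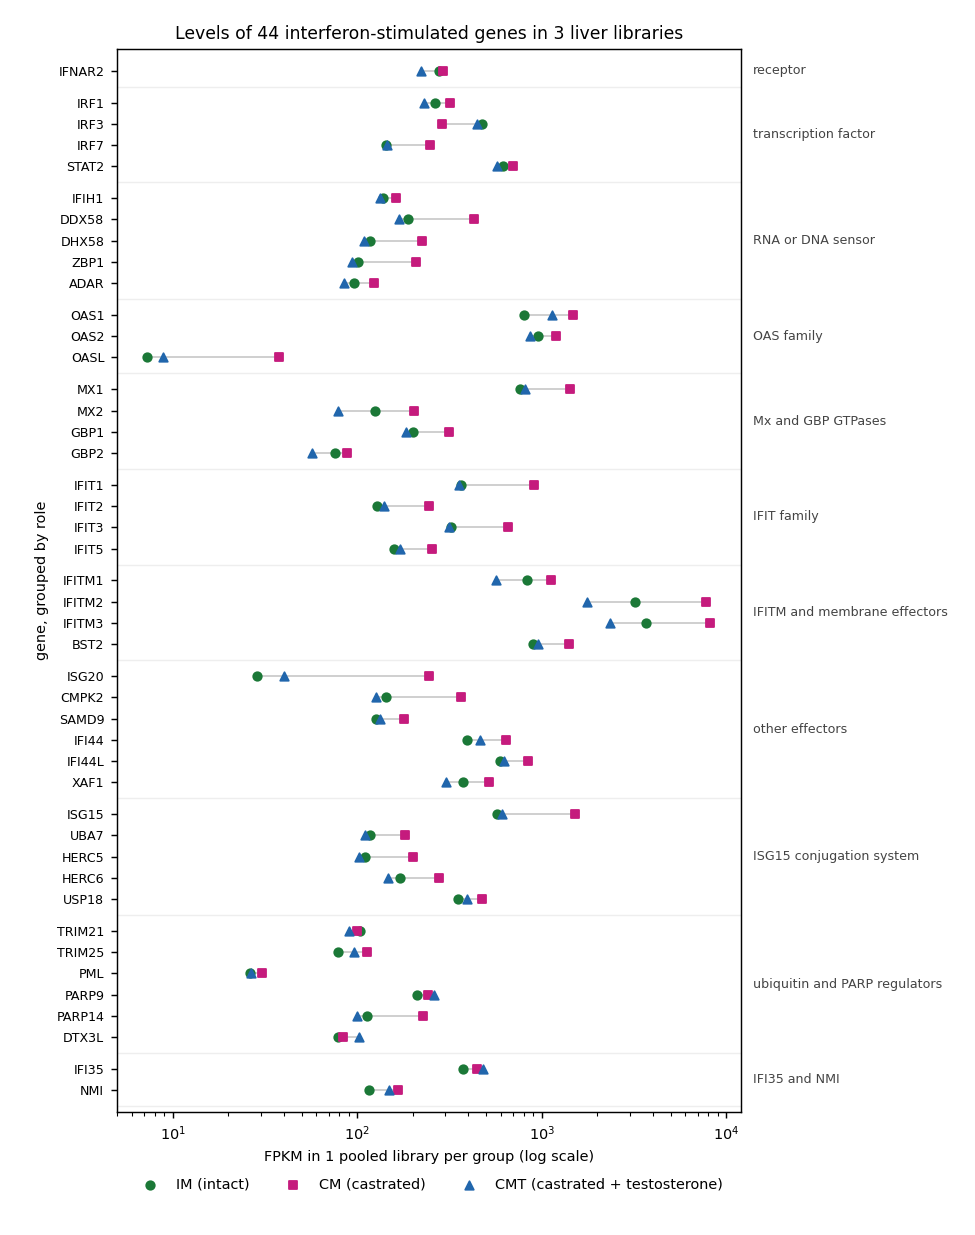
FPKM (log axis) of the 44 genes in the IM, CM, and CMT libraries, 1 point per pooled library, grouped by role. The CM square is the rightmost point for 39 genes, and IRF3 is the one gene for which CM is the lowest; with libraries scaled to equal sums TRIM21, PARP9, and IFI35 change direction.

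Among receptor and signalling genes, little stood out apart from IRF7 and IRF3. IFNAR2, a chain of the type I receptor, had an FPKM of 276 (IM), 290.2 (CM), and 221 (CMT). The ratio of CM to IM was 1.05 (95% interval 0.918 to 1.2), so as deposited CM and IM did not separate beyond counting error. Scaling to equal sums raised that log2 ratio from 0.07 to 0.33. CMT was lower than both, at 0.761 (0.652 to 0.888) of CM and 0.799 (0.677 to 0.942) of IM. With reads halved, as if both mates of a pair were counted, the interval for CMT to IM was 0.634 to 1.01 and held 1. STAT2, the interferon-specific part of ISGF3, had an FPKM of 615 (IM), 703 (CM), and 569 (CMT). IRF1, a transcription factor induced mainly by interferon gamma, had an FPKM of 264 (IM), 318 (CM), and 231 (CMT). Both were highest in CM by less than 1.5-fold, at ratios of CM to IM of 1.14 and 1.2.

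IRF7 and IRF3 differed in opposite directions. IRF7, which is itself interferon-inducible and drives transcription of interferon alpha genes, had an FPKM of 143 (IM), 248 (CM), and 145 (CMT). Its ratio of CM to IM was 1.74 (95% interval 1.59 to 1.92), that of CMT to CM was 0.583 (0.526 to 0.645), and that of CMT to IM was 1.02 (0.902 to 1.14). IRF3, which is present before any stimulus and is activated by phosphorylation, had an FPKM of 476 (IM), 289 (CM), and 447 (CMT). CM was thus the low library for IRF3, with a ratio to IM of 0.608 (95% interval 0.569 to 0.648) and a ratio of CMT to CM of 1.54 (1.44 to 1.65). IRF3 kept these directions but fell within 1.5-fold when libraries were scaled to equal sums, at log2 ratios of -0.46 for CM to IM and 0.38 for CMT to CM.

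The nucleic acid sensors split by gene, with 3 of 5 at least 1.5-fold higher in CM than in IM. DDX58, which encodes RIG-I, a sensor of viral RNA ends, had an FPKM of 189 (IM), 428 (CM), and 169 (CMT). Its ratio of CM to IM was 2.27 (95% interval 2.17 to 2.37) and its ratio of CMT to CM was 0.395 (0.376 to 0.415). DHX58 encodes LGP2, a regulator of the other RIG-I-like receptors, and had an FPKM of 118 (IM), 225 (CM), and 109 (CMT). It stood at 1.91 (1.76 to 2.08) for CM to IM and 0.483 (0.441 to 0.53) for CMT to CM. ZBP1, which senses left-handed nucleic acid and can start necroptosis, had an FPKM of 101 (IM), 208 (CM), and 93.9 (CMT). For ZBP1 the ratios were 2.07 (1.74 to 2.47) and 0.451 (0.37 to 0.546).

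The other sensors differed less. IFIH1, which encodes MDA5, a sensor of long double-stranded RNA, had an FPKM of 139 (IM), 163 (CM), and 134 (CMT). ADAR, the enzyme that edits adenosine in double-stranded RNA, had an FPKM of 96.1 (IM), 123 (CM), and 85.2 (CMT). CM was the highest library for both, at ratios to IM of 1.17 and 1.28. RIG-I-like receptors of 1 family therefore differed in the ratio of CM to IM, from 1.17 for IFIH1 to 2.27 for DDX58, with intervals that did not meet.

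The OAS genes encode enzymes that sense double-stranded RNA and make the second messenger 2-5A. OAS1 had an FPKM of 804 (IM), 1469.8 (CM), and 1137 (CMT). OAS1 was higher in CM than in IM, at 1.83 (95% interval 1.8 to 1.86), and CMT lay between them, with a ratio of CMT to IM of 1.41 (1.39 to 1.44) and of CMT to CM of 0.774. OAS2 had an FPKM of 950.3 (IM), 1189 (CM), and 864 (CMT). It differed less than OAS1 between CM and IM, at a ratio of 1.25 (1.21 to 1.29). Its ratio of CMT to CM, 0.727 (0.703 to 0.751), was lower than that of OAS1. OASL, an OAS-like protein without that enzyme activity in human that aids RIG-I, had an FPKM of 7.25 (IM), 37.7 (CM), and 8.92 (CMT). OASL rested on 24, 170, and 24 reads, and its ratios were 5.2 (3.38 to 8.34) for CM to IM and 0.237 (0.148 to 0.364) for CMT to CM. IM and CMT could not be told apart for OASL, at 1.23 (0.669 to 2.26).

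All 4 Mx and GBP genes were at least 1.5-fold lower in CMT than in CM, and 3 of 4 were at least 1.5-fold higher in CM than in IM. MX1, a dynamin-like GTPase that blocks influenza viruses, had an FPKM of 759 (IM), 1424 (CM), and 807 (CMT). Its ratios were 1.88 (1.83 to 1.92) for CM to IM and 0.567 (0.553 to 0.581) for CMT to CM. MX2, its relative, had an FPKM of 125 (IM), 203 (CM), and 78.6 (CMT). MX2 was 1 of 3 genes of the set at least 1.5-fold lower in CMT than in IM, at 0.628 (0.57 to 0.69). Its other ratios were 1.63 (1.52 to 1.74) for CM to IM and 0.386 (0.354 to 0.421) for CMT to CM. The guanylate-binding protein GBP1 had an FPKM of 201 (IM), 314 (CM), and 183 (CMT), and GBP2 had 75.4, 87.6, and 57 in the same order. No reads were recovered for the GBP genes, so their ratios of CM to IM, 1.56 and 1.16, and of CMT to CM, 0.583 and 0.651, carry no interval.

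All 4 IFIT genes, whose products bind viral RNA and hold it back from translation, were at least 1.5-fold higher in CM than in IM. IFIT1 had an FPKM of 366 (IM), 906 (CM), and 357 (CMT). IFIT3 had an FPKM of 323 (IM), 659 (CM), and 314 (CMT), and IFIT2 had 128, 244, and 139.5 in that order. For these 3 genes CMT lay within counting error of IM, at ratios of 0.975 (0.911 to 1.04), 0.972 (0.893 to 1.06), and 1.09 (0.909 to 1.31), and CM lay above both. The ratio of CM to IM was 2.47 (2.35 to 2.6) for IFIT1, 2.04 (1.91 to 2.18) for IFIT3, and 1.92 (1.65 to 2.22) for IFIT2. For CMT to CM the values were 0.394 (0.373 to 0.417), 0.477 (0.443 to 0.512), and 0.571 (0.488 to 0.665). IFIT5 had an FPKM of 158 (IM), 255 (CM), and 170.0 (CMT). It passed 1.5-fold for CM to IM, at 1.61 (1.47 to 1.77), and stopped just short of it for CMT to CM, at 0.667 (0.605 to 0.735).

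The IFITM genes, which encode membrane proteins that keep viruses from fusing with the endosome, included the most abundant transcripts of the set. IFITM3 had an FPKM of 3651 (IM), 8184 (CM), and 2341 (CMT), and IFITM2 had 3187, 7758, and 1767. IFITM1 had an FPKM of 837 (IM), 1124 (CM), and 568 (CMT). CM was the highest and CMT the lowest library for each of them. Ratios of CM to IM were 2.24 for IFITM3, 2.43 for IFITM2, and 1.34 for IFITM1, while CMT stood at 0.286, 0.228, and 0.505 of CM. IFITM2 and IFITM3 were also lower in CMT than in IM, at 0.554 and 0.641. No reads were recovered for these 3 genes and they are close copies of each other, so how reads were divided among them is uncertain and their ratios carry no interval. BST2, or tetherin, which holds budding virus at the cell surface, had an FPKM of 897 (IM), 1409 (CM), and 955 (CMT). Its ratio was 1.57 (1.35 to 1.83) for CM to IM and 0.678 (0.578 to 0.793) for CMT to CM.

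**Figure D3:**
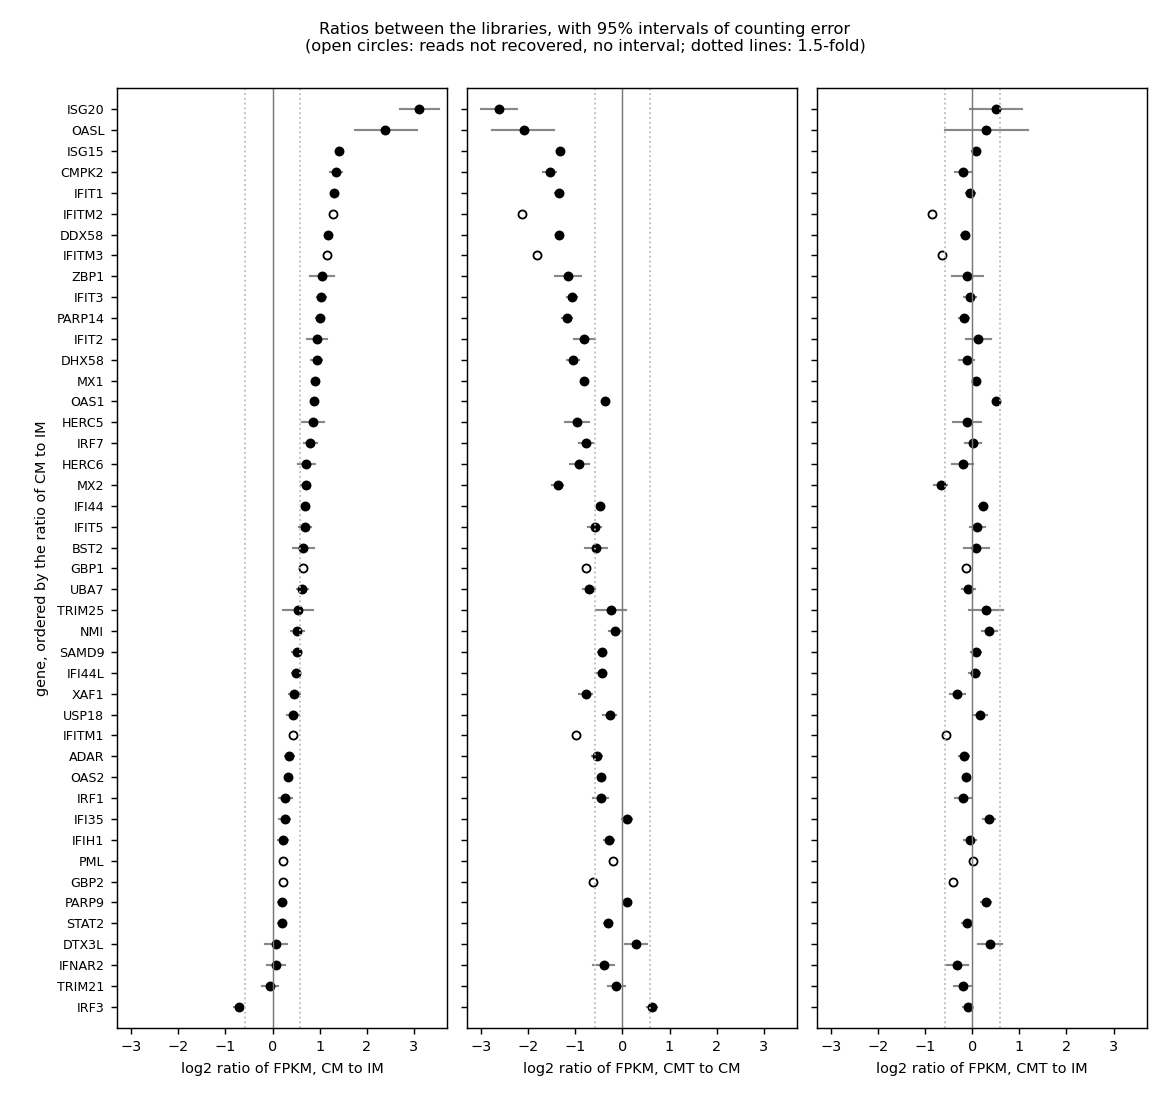
log2 ratio of FPKM for CM to IM, CMT to CM, and CMT to IM, 1 row per gene ordered by the first; horizontal lines are 95% intervals of counting error, open circles are the 6 genes without recovered reads, and dotted lines mark 1.5-fold. Most points lie right of 0 in the first panel, left of 0 in the second, and near 0 in the third; IRF3 goes the other way past 1.5-fold in the first and second panels, MX2, IFITM2, and IFITM3 lie below 1.5-fold in the third, and TRIM21, PARP9, and IFI35 lie close enough to 0 to change side when libraries are scaled to equal sums.

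ISG20 showed the widest difference of the 44 genes. ISG20, an exonuclease that degrades single-stranded RNA, had an FPKM of 28.6 (IM), 246 (CM), and 40.4 (CMT), from 54, 634, and 62 reads. CM was 8.62 (6.52 to 11.6) times IM, and the ratio of CMT to CM was 0.164 (0.124 to 0.213). The interval for CMT to IM, 1.41 (0.965 to 2.07), held 1. CMPK2, a mitochondrial nucleotide kinase, had an FPKM of 144 (IM), 365 (CM), and 126 (CMT). It followed the same pattern at a smaller size, with 2.54 (2.34 to 2.76) for CM to IM and 0.344 (0.312 to 0.379) for CMT to CM.

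The remaining effectors differed less. IFI44 had an FPKM of 395 (IM), 637 (CM), and 461 (CMT) and its neighbour IFI44L had 597, 842, and 620.5. SAMD9, a growth and antiviral factor, had an FPKM of 126 (IM), 179 (CM), and 133 (CMT). XAF1, which promotes cell death by binding the inhibitor XIAP, had an FPKM of 376 (IM), 518 (CM), and 303 (CMT). IFI44 passed 1.5-fold for CM to IM, at 1.61 (1.54 to 1.69), and not for CMT to CM, at 0.723. XAF1 did the reverse, with 1.38 and 0.584 (0.53 to 0.644). IFI44L and SAMD9 were within 1.5-fold in both, at ratios of CM to IM of 1.41 and 1.42.

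The ISG15 system attaches a ubiquitin-like protein to other proteins, and 4 of its 5 genes were at least 1.5-fold higher in CM than in IM and lower in CMT than in CM. ISG15, the tag itself, had an FPKM of 570.1 (IM), 1512 (CM), and 606 (CMT). Its ratios were 2.65 (2.54 to 2.77) and 0.401 (0.382 to 0.42) for these comparisons, and IM and CMT differed by a ratio of only 1.06. UBA7, the activating enzyme, had an FPKM of 117 (IM), 181 (CM), and 111 (CMT) and ratios of 1.55 (1.43 to 1.67) and 0.61 (0.56 to 0.664). HERC5, the ligase that transfers ISG15 in human cells, had an FPKM of 111 (IM), 200.0 (CM), and 102 (CMT). HERC6, which serves as the ISG15 ligase in mouse, had an FPKM of 169.6 (IM), 278 (CM), and 147 (CMT). The ligases had overlapping intervals in the comparison of CM with IM, at 1.81 (1.54 to 2.13) and 1.64 (1.45 to 1.85), and in that of CMT with CM, at 0.512 (0.427 to 0.612) and 0.531 (0.462 to 0.608). USP18, the protease that removes ISG15 and also dampens receptor signalling, had an FPKM of 352 (IM), 475 (CM), and 395 (CMT). USP18 was the exception of the group, within 1.5-fold at 1.35 for CM to IM and 0.831 for CMT to CM.

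Among the ubiquitin and PARP regulators, only PARP14 followed the pattern. PARP14, a mono-ADP-ribosyltransferase, had an FPKM of 113 (IM), 226 (CM), and 100.3 (CMT) and ratios of 2.0 (1.88 to 2.12) and 0.444 (0.414 to 0.475). PARP9 had an FPKM of 211 (IM), 242 (CM), and 259.7 (CMT), and DTX3L, the ubiquitin ligase that pairs with PARP9, had 79.2, 83.5, and 102. These partners were lowest in IM and highest in CMT, although the difference of PARP9 between CMT and CM, at a log2 ratio of 0.10, turned to -0.15 when libraries were scaled to equal sums. The ratio of CMT to IM was 1.23 (1.15 to 1.32) for PARP9 and 1.29 (1.09 to 1.54) for DTX3L.

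The TRIM genes and PML were within 1.5-fold in every comparison. TRIM21, an intracellular antibody receptor, had an FPKM of 103 (IM), 99.2 (CM), and 90.6 (CMT). TRIM21 had a ratio of CM to IM of 0.961 (0.858 to 1.08), and its log2 ratio of -0.06 turned to 0.20 with scaling to equal sums. TRIM25, the ligase that activates RIG-I, had an FPKM of 78.4 (IM), 114 (CM), and 96.4 (CMT) and a ratio of CM to IM of 1.45. PML, the organiser of nuclear bodies, had an FPKM of 26.1 (IM), 30.5 (CM), and 26.5 (CMT) and no recovered reads.

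IFI35 and NMI, which bind each other in the cytoplasm, were lowest in IM. IFI35 had an FPKM of 373 (IM), 445 (CM), and 478 (CMT), and NMI had 116, 167, and 149.6. Neither passed 1.5-fold in any comparison. Their ratios of CMT to IM were 1.28 (1.18 to 1.4) and 1.29 (1.16 to 1.43), among the higher of the set. The small difference of IFI35 between CMT and CM, at a log2 ratio of 0.10, turned to -0.14 with scaling to equal sums.

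Members of a family that lie together in the genome did not always share a ratio. In the Sscrofa11.1 annotation of RefSeq, which is a later assembly than the one used for mapping and serves here only for gene order, 41 of the 44 genes had a position. Of these, 18 fell into 8 clusters of members at most 3 positions apart. The widest spread was in the cluster of PARP14, DTX3L, and PARP9, with log2 ratios of CM to IM of 1.0, 0.08, and 0.20. IFITM1 and IFITM3 followed, at 0.43 and 1.16, and then OAS2 and OAS1, at 0.32 and 0.87. GBP2 and GBP1, at 0.22 and 0.65, and IFIT2, IFIT3, and IFIT1, at 0.94, 1.03, and 1.31, had intermediate spreads. The narrowest spreads were those of MX2 and MX1, at 0.70 and 0.91, IFI44 and IFI44L, at 0.69 and 0.50, and HERC5 and HERC6, at 0.86 and 0.71. Neighbouring copies can share reads, and the library kit does not mark strand, so values of overlapping or near-identical genes are uncertain.

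**Figure D4:**
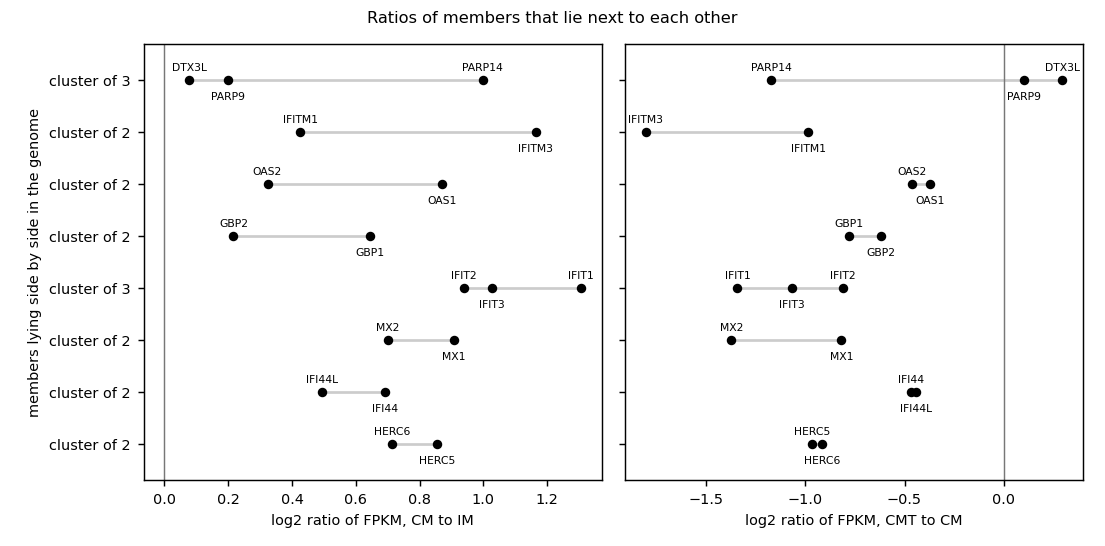
log2 ratio of FPKM, CM to IM (left) and CMT to CM (right), for the 18 genes that lie in 8 clusters of neighbouring members; 1 point per gene, clusters ordered by their spread in CM to IM. PARP14 stands apart from PARP9 and DTX3L in both panels, while HERC5 and HERC6 lie close together; the sign of PARP9 on the right reverses when libraries are scaled to equal sums.

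Interferon genes themselves were barely detected. Of 35 features named as interferon genes, picked by name after values were seen, 9 were listed at 0 in every library and the highest FPKM was 10.9, for an interferon alpha gene in CMT. All 35 together summed to 34.7 (IM), 45.9 (CM), and 39.6 (CMT). The 12 interferon alpha features summed to 17.4, 21.6, and 23.8, and the 6 omega features to 8.69, 10.1, and 4.70. IFNB1, interferon beta, was listed at 0 in all 3 libraries. IFNG, the type II interferon made by T and NK cells, was listed at 0 in IM and CMT and had an FPKM of 4.08 in CM, from 10 reads. With so few reads, and with interferon alpha copies that are near-identical, no order of the libraries can be read from the ligands at this depth.

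A wider list of interferon pathway genes outside the 44 showed the same direction with a smaller median. Of 66 such genes past the FPKM minimum, 23 were at least 1.5-fold higher in CM than in IM and 4 were lower, where 11.1% and 12.1% of all features were, and the median log2 ratio was 0.33. In CMT versus CM, 22 were at least 1.5-fold lower, against 13.5% of all features, and STAT3 alone was higher, with a median of -0.40. The weight lay in the 43 further interferon-stimulated genes, of which 19 were higher in CM than in IM and 1 was lower. Of 14 signalling genes, 4 were higher, and of 6 negative regulators, none was higher and 2 were lower.

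DDX60, a helicase that aids RIG-I, had an FPKM of 32 (IM), 112 (CM), and 24.3 (CMT). For DDX60 the ratio of CMT to CM was 0.217 (0.181 to 0.258). UBE2L6, the conjugating enzyme that works between UBA7 and HERC5 in ISG15 transfer, had an FPKM of 286 (IM), 963 (CM), and 239.8 (CMT). With UBE2L6 at 3.36 (2.84 to 4.0) for CM to IM and 0.249 (0.202 to 0.304) for CMT to CM, tag, activating enzyme, conjugating enzyme, and ligases were all higher in CM than in the other libraries. CXCL10, a chemokine that draws T cells, had an FPKM of 1582 (IM), 5085 (CM), and 2058 (CMT). PSMB9, an immunoproteasome subunit, had an FPKM of 105 (IM), 297 (CM), and 93.5 (CMT).

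The 4 pathway genes lower in CM than in IM are named after their values were seen. SOCS1, a feedback inhibitor of JAK kinases, had an FPKM of 72 (IM), 38.3 (CM), and 30 (CMT). PTPN1, a phosphatase that acts on JAK2 and TYK2, had an FPKM of 105 (IM), 61.7 (CM), and 62.4 (CMT). Neither returned to the IM level in CMT, where the ratios to IM were 0.417 (0.321 to 0.536) for SOCS1 and 0.592 (0.499 to 0.701) for PTPN1. SAMHD1, which depletes nucleotides that viruses need, had an FPKM of 463 (IM), 267 (CM), and 399 (CMT) and a ratio of CM to IM of 0.576 (0.549 to 0.604). IL10RB, a chain shared by the receptors of interleukin 10 and interferon lambda, had an FPKM of 166 (IM), 94.7 (CM), and 128 (CMT) and a ratio of 0.572 (0.38 to 0.856). STAT3, which carries interleukin 6 signals, had an FPKM of 627 (IM), 478 (CM), and 723 (CMT) and a ratio of CMT to CM of 1.51 (1.44 to 1.58). CM was the lowest library for SAMHD1, IL10RB, and STAT3, as for IRF3. For PTPN1, CM and CMT did not separate beyond counting error, at a ratio of CMT to CM of 1.01 (0.846 to 1.21), and for SOCS1 the lowest library was CMT. With scaling to equal sums, SOCS1 was still past 1.5-fold for CM to IM, at a log2 ratio of -0.65, while PTPN1, SAMHD1, and IL10RB fell within it, as STAT3 did for CMT to CM.

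Immune cell markers were not level across the libraries either. In whole liver, more or fewer cells of a type and more or less RNA per cell cannot be told apart. Markers common to all leukocytes summed to an FPKM of 1301 (IM), 1748 (CM), and 1256 (CMT), a ratio of CM to IM of 1.34, and 4 of 5 were highest in CM. T and NK cell markers summed to 909, 923, and 866, a sum in which CD247 weighs most. CD247, a signalling chain of the T cell receptor complex, was lowest in CM, with an FPKM of 450.0 (IM), 296 (CM), and 513 (CMT) and ratios of 0.657 for CM to IM and 1.73 for CMT to CM. It was the 1 marker of the list past 1.5-fold between CM and IM. Of these 10 markers, 8 were highest in CM, the median log2 difference from IM was 0.45, and 6 were at least 1.5-fold lower in CMT than in CM. KLRK1, an NK and T cell receptor, had an FPKM of 120.3 (IM), 177 (CM), and 117 (CMT), and CD3E, a chain of the T cell receptor complex, had 53.7, 79.7, and 39. Macrophage and Kupffer cell markers summed to 17051, 16922, and 18458, with 2 of 9 highest in CM. MARCO, a scavenger receptor of Kupffer cells, is named because its ratio of CM to IM, 0.2, was the lowest of the 9. Its FPKM was 414 (IM), 82.8 (CM), and 317 (CMT), so CM was the lowest library for it. The median ratio of CM to IM over the 9 markers was 0.934. For 6 of the 9, MARCO included, CM was below IM. For the other 3, C1QB, AIF1, and C1QC, CM was above IM, at ratios of 1.32, 1.16, and 1.07. B and plasma cell markers summed to 122, 137, and 124, with 3 of 6 highest in CM.

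The summed FPKM of the 44 interferon-stimulated genes was 18971 (IM), 35101 (CM), and 16299 (CMT). IFITM2 and IFITM3 were the largest terms of that sum. The sums of those immune lists differed less. By median log2 ratio, the 44 genes stood at 0.65 for CM to IM and -0.67 for CMT to CM. The T and NK cell markers stood at 0.45 and -0.70. Of the other lists, hepatocyte markers had a ratio of summed FPKM of 0.749 for CM to IM, with 0 of 8 highest in CM. ALB weighs most in that sum. The median ratio over the 8 markers was 0.797 for CM to IM and 0.947 for CMT to IM. Sums of endothelial markers had a ratio of CM to IM of 0.896, stellate cell markers 1.06, and the 2 matched biliary markers 1.72. No matched marker was at 0 in any library. The part of cell composition in the interferon-stimulated gene values was not tested.

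**Figure D5:**
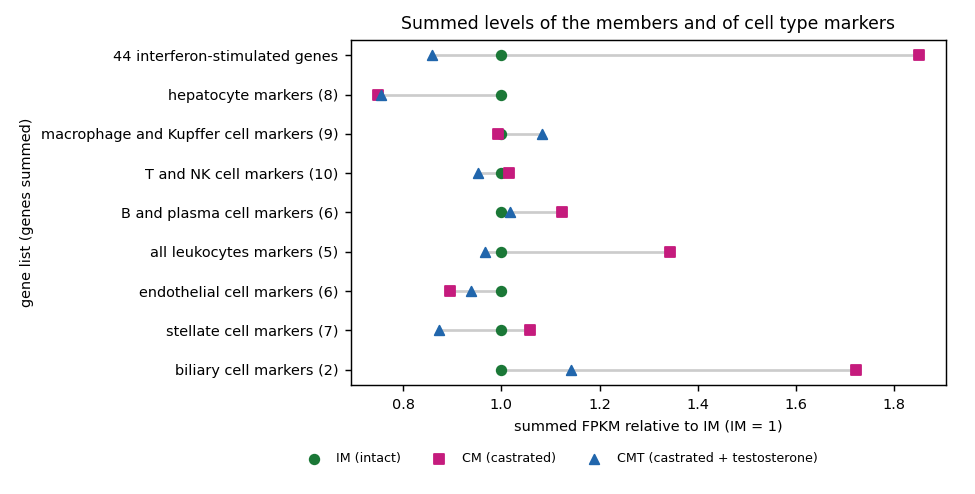
Summed FPKM relative to IM (IM = 1) of the 44 interferon-stimulated genes and of 8 lists of cell type markers, with the number of genes summed in parentheses; 1 point per pooled library. In CM the 44 genes summed to 35101 against 18971 in IM, and markers of all leukocytes to 1748 against 1301. Hepatocyte markers, with ALB the largest term, summed to 744651 in CM against 994629 in IM. IFITM2 and IFITM3 are the largest terms of the sum of the 44 genes. CD247, which was lowest in CM, is the largest term of the T and NK cell sum.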

How the data were processed

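Liver RNA-Seq was made from 3 pooled libraries, IM, CM, and CMT, with 1 library per group taken from the sample titles. The authors checked reads with FastQC, mapped them with TopHat to the pig genome, and deposited, for each library, the FPKM of 34579 features. The counting program and annotation are not given in the sources used here. Within most genes the 3 FPKM values were whole multiples of a step, which gave a length and reads for 23094 of the 24277 features above 0 (95.1%). The smallest fitting length was taken, so a common factor can be lost. Recovered reads of CM and CMT exceeded the uniquely mapped reads that the paper lists, so reads of some genes may also be too high. The scale of the lengths was chosen to bring the most of 13 mitochondrial genes within 2 bases of their annotated lengths. It did so for 9, a count that is therefore no separate check of the lengths. Among the 44 genes described, recovered lengths ran from 115 bases (BST2) to 9540 bases (OAS1). An interval is too wide where the recovered length is too short, and too narrow where it is too long. The recovery was tested on simulated data.

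Ratios used FPKM as deposited, with no pseudocount, and mRNA features of at least 1 in all 3 libraries. With 1 library per group no p-value was computed. Intervals are Clopper-Pearson. All matched genes are named, with intervals for those 1.5-fold different or lower in CM. Of the wider list, the rule names 1 preset gene and the 5 with the largest absolute log2 ratio of CM to IM, and some of the genes it covers are not reported here. The genes, lists, and rules were chosen with earlier results of these data known. The alternatives tried were a minimum FPKM of 10, no minimum, log2 with a pseudocount of 1, all features, a 2-fold threshold, 3 other scalings, and calls needing an interval without 1. An interval on halved reads was chosen after seeing the data. Promoter motifs and protein identities were planned and not analysed here. Python 3.11.15, numpy 2.4.6, pandas 2.3.3, scipy 1.17.1, and matplotlib 3.10.9 were used.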

Additional observations from a re-analysis of the deposited data

How the results depend on the processing

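Directions of the median differences did not change under any alternative tried. At a 2-fold threshold, 10 genes were higher in CM than in IM, 10 were above both other libraries, and 13 were lower in CMT than in CM. For the first of these counts the share of all features was 4.61%, and for the other 2-fold counts it is not reported here. At that threshold 0 were lower in CM than in IM, 0 higher in CMT than in CM, and 0 lower in CMT than in IM, and among the wider pathway list 8 genes differed between CM and IM and 11 between CMT and CM. Under scaling to equal sums and to recovered reads, the median log2 ratio was 0.91 and 0.92 for CM to IM and -0.91 and -0.93 for CMT to CM. Both scalings left 0 genes lower in CM than in IM and 0 higher in CMT than in CM, since IRF3 no longer passed. Of the wider list, 38 genes then differed between CMT and CM, compared with 23 as deposited. Past 1.5-fold, 1051 of 15613 features were higher and 3572 lower in CMT than in CM with equal sums. With recovered reads these were 1023 and 3655, and as deposited 1896 and 2110. Requiring an interval without 1, on all or on halved reads, left 1 gene lower in CMT than in IM, because IFITM2 and IFITM3 have no recovered reads. The minimum of 10, no minimum, the pseudocount, all features, and scaling by the median ratio moved no count by over 1.5 times. Of 528 values for single genes under a pseudocount or another scaling, 368 stayed within counting error (or within 0.1 on the log2 scale where no reads were recovered). The other 160 were 80 of 132 under scaling to equal sums and 80 of 132 under scaling to recovered reads. Ratios of CMT to IM could hardly move there, since these scalings shifted them by 0.0095 and 0.0074 on the log2 scale. The pseudocount and scaling by the median ratio moved 0 of 132 each. None of the differences past 1.5-fold changed direction. No paired analysis was possible because each group is 1 pooled library. Depth limits OASL, ISG20, and the interferon genes most.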
